A study of Mus musculus with 18 samples.

Results

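Imprinted autosomal genes are described here by the repressive chromatin mark H3K27me3 in the embryonic mouse medial ganglionic eminence (MGE), a ventral forebrain source of interneurons. The 34 genes belong to 15 imprinted clusters or single loci, and they were taken from a fixed list of imprinted genes among 20665 autosomal protein-coding genes in the gene table. A gene was taken as marked in a library when an interval of that library's deposited list overlapped the gene body extended by 2500 bp on either side.

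H3K27me3 was measured by bulk CUT&Tag, in which an antibody to the mark directs a transposase that tags nearby DNA. Wild-type embryos (WT) were set against embryos with Ezh2 deleted (KO, labelled Nkx2.1-CreC/+;Ezh2;Ai9F/+) at embryonic days E12.5 and E15.5, and each of the 4 groups held 3 libraries. The alleles were Nkx2.1-Cre, a floxed Ezh2 and the Ai9 reporter. The parents carried Nkx2.1-CreC/C;Ezh2F/+ and Ai9F/F;Ezh2F/+, so by that cross each embryo received a Cre and a reporter allele. Nkx2.1-Cre acts in cells that have expressed Nkx2-1, so any other cell in the tissue keeps Ezh2. The whole MGE was taken at E12.5, whereas at E15.5 the dissection followed the reporter's fluorescence, and embryos that shared a genotype could be pooled. The labels call the 3 libraries of a group biological replicates. The 6 heterozygous samples of the series were not analysed here.

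Imprinted genes are expressed mainly or only from the maternal or the paternal allele, for most of them as set by DNA methylation that differs between egg and sperm. EZH2 is a catalytic subunit of Polycomb repressive complex 2, which places H3K27me3, and its relative EZH1 can also place the mark. At several imprinted clusters the mark lies on the silent allele, and it can also cover a promoter on both alleles in cells that do not use the gene. The counts here do not separate the alleles, and a bulk library cannot tell fewer marked cells from less of the mark per cell.

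The 12 lists held from 5008 to 13289 intervals, with counts on the autosomes from 570378 to 6802137. A library's depth, recovered from the deposited scores as a mean count per 200 bp window, ranged from 0.117 to 0.698 in E12.5 WT and from 0.212 to 0.272 in E12.5 KO. At E15.5 it ranged from 0.0751 to 0.15 in WT and from 0.179 to 0.346 in KO, so the order of the genotypes by depth was not the same at the 2 stages. Counts below were divided by depth, brought back to its mean over the libraries, and are called normalised counts. The share of covered bases on chromosome X was 18.1% to 24.5% in the E12.5 KO libraries and 20.9% in E12.5 WT replicate 3, against 0.874% to 5.33% in the other 8, and the part of this in any autosomal value was not tested. The lists cannot check the tissue or the deletion. Ezh2 had no interval in any library, and intervals were present in all 12 libraries at 9 of 10 MGE markers, Nkx2-1 among them, and at 6 of 6 genes of the dorsal pallium, which the MGE does not form. None of 8 housekeeping genes had an interval in every library.

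By the presence of intervals the imprinted genes fell into 3 classes. An interval was present in all 12 libraries at 12 of the 34 genes, against 12.1% of all autosomal genes, and in no library at 11 of the 34, against 61.2% of all autosomal genes. The other 11 genes had an interval in 1 to 8 libraries. Single libraries marked 12 to 19 of the 34 genes (35.3% to 55.9%), against 15.9% to 31.5% of all autosomal genes.

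**Figure D1:**
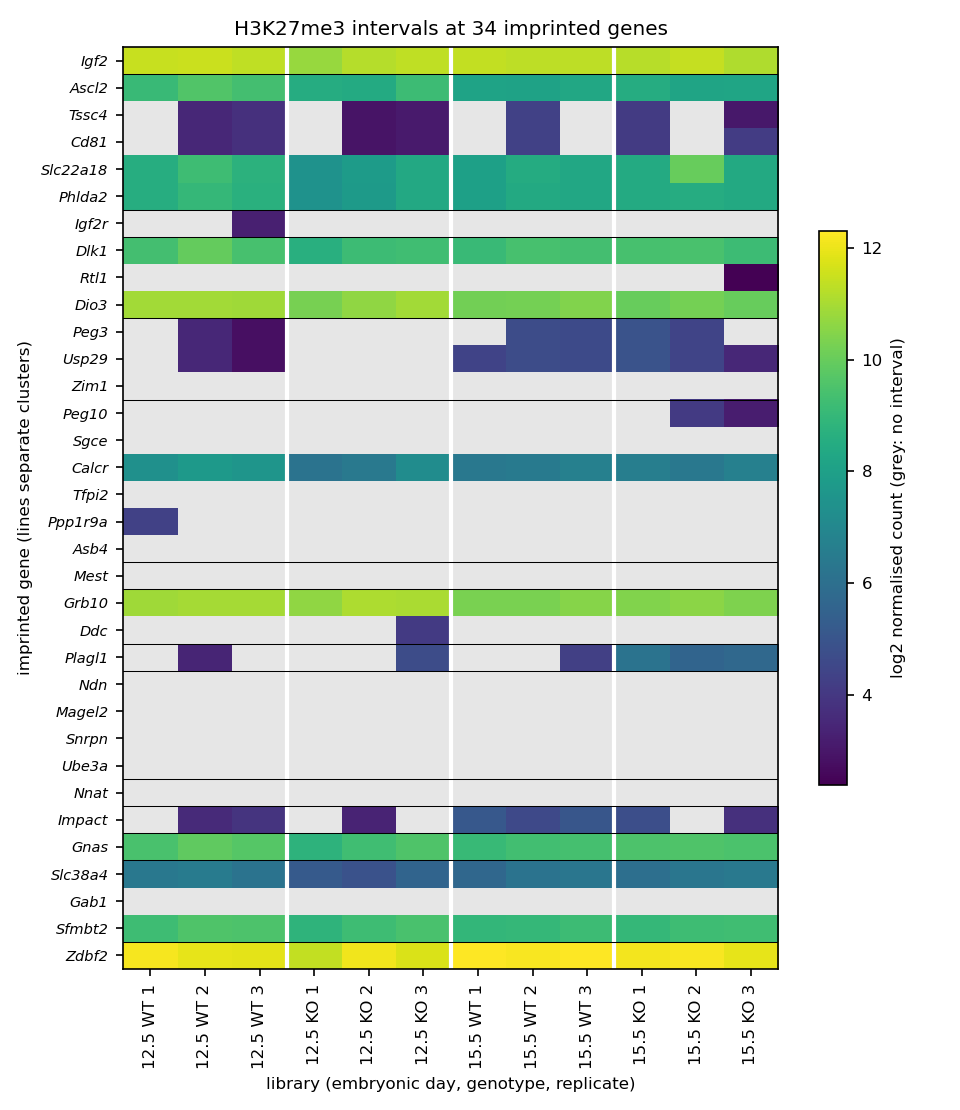
Normalised count (log2 colour scale, grey where no interval was called) of 34 imprinted genes, 1 gene per line, in the 12 libraries, named by embryonic day, genotype and replicate. The 12 genes marked throughout form unbroken bands across all 4 groups, and 11 genes are grey in every library.

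The genes marked throughout were Igf2, Ascl2, Slc22a18, Phlda2, Dlk1, Dio3, Calcr, Grb10, Gnas, Slc38a4, Sfmbt2 and Zdbf2. They include growth regulators of opposite parental expression, such as Igf2, a paternally expressed growth factor, and Phlda2, a maternally expressed restrainer of growth. The 11 genes without an interval were Zim1, Sgce, Tfpi2, Asb4, Mest, Ndn, Magel2, Snrpn, Ube3a, Nnat and Gab1. All 4 genes of the Snrpn-Ube3a cluster, the locus of Prader-Willi and Angelman syndromes in humans, are in that class, together with Mest and Nnat. With the 12 lists shortened to the same number of intervals, 14 of the 34 genes had no interval in any library. The share of all autosomal genes was not taken for the shortened lists.

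The classes cut through clusters. In the Dlk1-Dio3 cluster on chromosome 12, Dlk1 and Dio3, at opposite ends, were marked in all 12 libraries, while Rtl1, which lies between them, had an interval in 1. In the Peg10-Sgce cluster on chromosome 6, Calcr was marked in all 12 libraries, Peg10 in 2, Ppp1r9a in 1, and Sgce, Tfpi2 and Asb4 in none. In the Kcnq1ot1 cluster of distal chromosome 7, Ascl2, Phlda2 and Slc22a18 were marked throughout, and Tssc4 and Cd81 in 7 libraries each. Of the 3 genes whose imprinting in extraembryonic tissue is known to rest on H3K27me3 from the egg, Slc38a4 and Sfmbt2 were marked throughout and Gab1 never.

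Neighbouring genes can share an interval and then are not separate observations. Phlda2 and Slc22a18 shared an interval in all 12 libraries, Cd81 and Tssc4 in 7, and Peg3 and Usp29 in 6. The shared interval lay over Phlda2 and reached inside the 3′ end of Slc22a18 except in E12.5 KO replicate 1 and E15.5 WT replicates 1 and 2, where it began beyond that end. The annotated start of Slc22a18 was covered in no library. With gene bodies only, 11 imprinted genes had an interval in all 12 libraries, and Slc22a18 was not among them.

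Start sites show where within a gene the mark lay. RefSeq start sites (GRCm38.p6) were found for 30 of the 34 genes, 53 sites in all. Of those 30 genes, 10 had a start site inside an interval in all 12 libraries, against 7.29% of 16457 autosomal genes with a start site. By site, 17 of 53 were covered in all 12 libraries, 29 in none and 7 in 1 to 11. Of 20085 start sites of all autosomal genes, the same classes held 1401, 14420 and 4264. The sequences below are the 300 bases around a start (250 before and 50 from the start on), 5′ to 3′ on the gene's strand, with each CpG dinucleotide in capitals. They are shown because the first 2 pairs are start sites of 1 gene that differ in how many libraries cover the start base. Grb10 has the densest CpGs among the marked sites. Of the 53 sites, that of Plagl1 differed most between groups in the number of libraries marked, and it was chosen after this was seen. Covered means that the start base itself lay inside an interval, and an interval can reach into a window without covering the start. The windows are, in order, chr1:63200108-63200407 (plus strand, covered in 0 libraries), chr1:63273019-63273318 (plus, 12), chr2:174327499-174327798 (plus, 12), chr2:174329756-174330055 (plus, 1), chr11:12037371-12037670 (minus, 12) and chr10:13090582-13090881 (plus, 4).
Zdbf2 upstream start: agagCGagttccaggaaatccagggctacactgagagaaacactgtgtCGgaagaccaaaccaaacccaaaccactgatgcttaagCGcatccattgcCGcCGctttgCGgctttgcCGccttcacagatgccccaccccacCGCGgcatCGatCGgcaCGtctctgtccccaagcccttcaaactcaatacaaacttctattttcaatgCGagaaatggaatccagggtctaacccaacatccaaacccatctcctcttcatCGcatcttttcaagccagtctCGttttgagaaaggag
Zdbf2 downstream start: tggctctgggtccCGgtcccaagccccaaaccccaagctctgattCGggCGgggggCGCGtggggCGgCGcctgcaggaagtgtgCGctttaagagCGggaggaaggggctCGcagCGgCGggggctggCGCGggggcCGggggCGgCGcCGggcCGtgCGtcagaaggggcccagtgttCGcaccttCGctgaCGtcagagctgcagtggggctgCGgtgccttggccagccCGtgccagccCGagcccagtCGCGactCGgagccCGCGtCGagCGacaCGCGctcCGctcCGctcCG
Gnas upstream start of the pair: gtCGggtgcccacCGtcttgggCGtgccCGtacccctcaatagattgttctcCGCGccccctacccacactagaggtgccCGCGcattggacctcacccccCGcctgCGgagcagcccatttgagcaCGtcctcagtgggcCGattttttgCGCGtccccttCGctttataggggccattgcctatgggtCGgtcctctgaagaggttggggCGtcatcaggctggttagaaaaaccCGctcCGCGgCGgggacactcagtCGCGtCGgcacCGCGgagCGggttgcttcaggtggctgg
Gnas downstream start of the pair: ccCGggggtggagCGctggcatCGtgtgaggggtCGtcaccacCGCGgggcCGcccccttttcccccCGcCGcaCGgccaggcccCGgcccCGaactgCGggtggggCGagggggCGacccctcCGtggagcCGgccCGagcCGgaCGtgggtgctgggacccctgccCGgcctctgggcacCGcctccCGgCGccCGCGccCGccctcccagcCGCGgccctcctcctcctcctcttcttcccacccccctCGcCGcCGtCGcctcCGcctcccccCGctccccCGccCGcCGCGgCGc
Grb10 upstream start: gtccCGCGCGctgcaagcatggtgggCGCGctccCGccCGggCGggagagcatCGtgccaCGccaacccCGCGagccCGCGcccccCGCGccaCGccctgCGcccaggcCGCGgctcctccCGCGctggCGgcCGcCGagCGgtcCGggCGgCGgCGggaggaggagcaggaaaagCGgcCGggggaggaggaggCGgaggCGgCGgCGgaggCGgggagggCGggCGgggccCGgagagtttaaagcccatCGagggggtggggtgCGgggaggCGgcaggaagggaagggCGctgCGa
Plagl1 start: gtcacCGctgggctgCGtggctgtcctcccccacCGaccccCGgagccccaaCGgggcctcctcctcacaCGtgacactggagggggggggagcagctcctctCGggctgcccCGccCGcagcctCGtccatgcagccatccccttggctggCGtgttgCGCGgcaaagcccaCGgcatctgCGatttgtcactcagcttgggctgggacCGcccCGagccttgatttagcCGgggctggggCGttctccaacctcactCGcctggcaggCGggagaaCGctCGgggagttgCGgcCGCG

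Zdbf2 had the longest marked stretch. It encodes a zinc finger protein and is expressed from the paternal allele, and its upstream start, some way before the gene proper, is known for a long transcript of early development. The bases covered in all 12 libraries were chr1:63246001-63276200 and chr1:63277001-63281600, 34.8 kb in all, inside the annotated gene (chr1:63200358-63314576). They hold the downstream start, which has 38 CpGs in 300 bases, and not the upstream start with 15 CpGs, which no library covered.

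**Figure D2:**
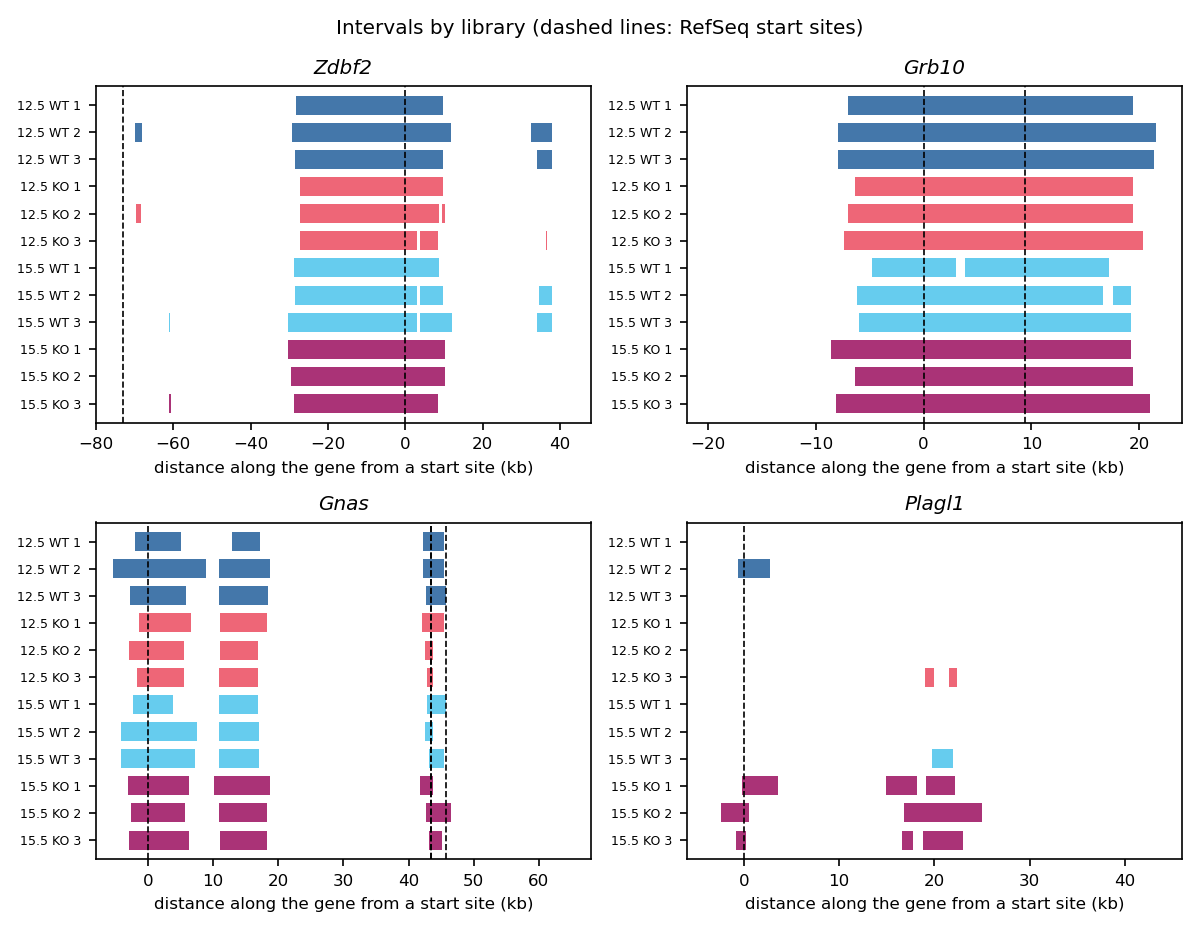
Intervals (bars) of each library at Zdbf2, Grb10, Gnas and Plagl1, by distance in kb from a start site along the gene, coloured by group, with annotated start sites as dashed lines. At Zdbf2 the bars of all 12 libraries span the downstream start and none reaches the upstream one, and at Plagl1 bars at the start are present in 3 of 3 E15.5 KO libraries.

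Gnas encodes the stimulatory G protein alpha subunit and has several promoters that are used from the maternal allele, the paternal allele or both. Its most upstream start, at chr2:174284320, lay in a stretch covered in all 12 libraries (chr2:174283001-174288200). Another stretch (chr2:174297201-174301200) held no listed start, and the last, of 0.6 kb, held a pair of starts 19 bp apart. The start 2.24 kb farther downstream has 40 CpGs in 300 bases, more than the other Gnas starts, and was covered in 1 library, of E15.5 KO. That start is at chr2:174330006, and intervals ended just before it in other libraries. They ended at 174330000 in E12.5 WT replicate 3 and E15.5 WT replicate 1. In E12.5 WT replicates 1 and 2, E12.5 KO replicate 1 and E15.5 WT replicate 3 they ended at 174329800. Both ends lie inside the printed window, so this start does not stand clear of the mark. The mark therefore reached 3 of the 4 Gnas starts in every library.

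At Grb10, which encodes an adaptor that restrains insulin and growth factor signalling, both annotated starts were covered in all 12 libraries. The shared stretches were chr11:12020801-12033600 and chr11:12034401-12040000, 18.4 kb in all, at the 5′ end of the gene (chr11:11930499-12037428). The upstream start has 45 CpGs and the downstream start, 9.45 kb away, has 9.

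At Igf2, the 4 annotated starts lay in the shared stretches, 15.0 kb in all, which ran over almost the whole gene (chr7:142650768-142666816). The stretches shared by the 12 libraries measured 11.8 kb at Dlk1, a noncanonical ligand of Notch, and 7.0 kb at Dio3, which encodes the deiodinase that inactivates thyroid hormone. They measured 7.8 kb at Sfmbt2, itself a Polycomb group gene, 5.6 kb at Ascl2, a transcription factor of trophoblast and stem cells, and 5.0 kb at Phlda2. The shortest were 2.8 kb at Calcr, the calcitonin receptor, and 1.4 kb at Slc38a4, an amino acid transporter. The Slc38a4 start nearest the stretch was covered in 11 of 12 libraries. The 1.8 kb beside Slc22a18, a transporter gene, are the part of Phlda2's stretch that lies in the Slc22a18 window. The shared stretches held the start or starts of Igf2, Dlk1, Dio3, Ascl2, Phlda2 and Calcr, and 1 of the 2 starts of Sfmbt2.

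Marked start sites had more CpGs than unmarked ones, as they did among all genes. The median was 23 CpGs (2 to 45) at the 17 sites of imprinted genes covered in all 12 libraries and 10 (2 to 48) at the 29 covered in none. Among 20085 start sites of all autosomal genes the medians were 20 and 9. Starts that lie close together count separately here, such as those 3 bp apart at Mest, 19 bp at Gnas, 40 bp at Gab1 and 78 bp at Tfpi2. CpG number did not separate the classes at single sites. Igf2r, a maternally expressed receptor that clears IGF2, had 34 CpGs at its start and Ppp1r9a had 48 at one of its starts, and neither site was covered in any library, whereas the most upstream Igf2 start had 2 and was covered in all 12.

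**Figure D3:**
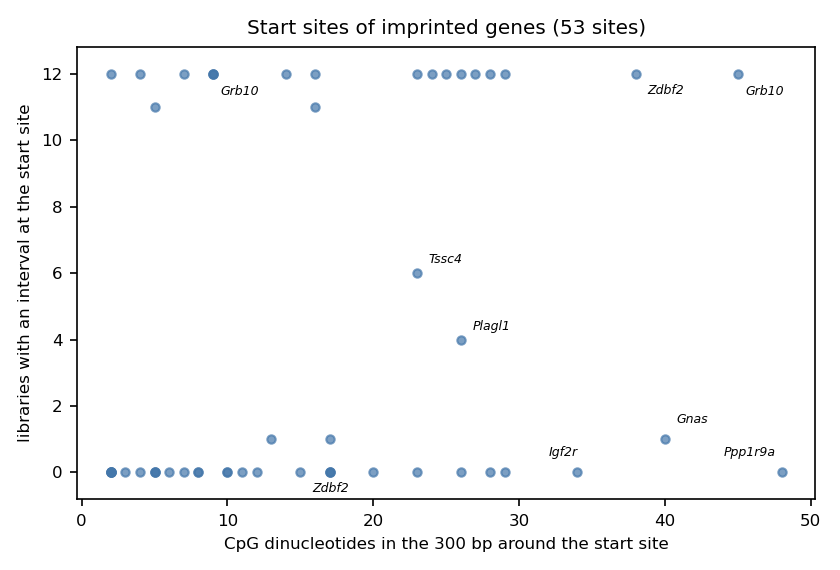
CpG dinucleotides in the 300 bp around each of 53 start sites of imprinted genes (x axis) against the number of libraries with an interval at the site (y axis), with some genes named. Sites covered in all 12 libraries run from 2 to 45 CpGs and sites covered in none from 2 to 48.

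ZFP57, a zinc finger protein that protects methylated imprints, recognises the hexamer TGCCGC. That hexamer, read on both strands (GCGGCA on the other), was present in 10 of 53 start windows of imprinted genes (18.9%), against 14.2% of all 20085 windows. Among the imprinted windows it was in 17.6% of those covered in all 12 libraries and in 20.7% of those covered in none. Overlapping windows of Mest, from starts 3 bp apart, each count in these shares. The unmarked upstream start of Zdbf2 held 3 matches, more than any other imprinted window, and the marked downstream start held 0. Calcr, at its marked start with 29 CpGs, and Mest, never marked, held 2 each.

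Levels differed several-fold among the 12 genes marked throughout. Per kb of interval, the median over the 12 libraries was 132 normalised counts at Igf2, 108 at Zdbf2 and 95.8 at Dio3, against a median of 27.3 over the 2492 autosomal genes marked in every library. Igf2 lay above 89.6% of those genes, Zdbf2 above 86.0% and Dio3 above 84.1%. Grb10 had 60.6 and Sfmbt2 54.5 normalised counts per kb, and Ascl2, Dlk1, Phlda2, Gnas and Slc22a18 lay between 36.8 and 41.8. Calcr, at 26.2, and Slc38a4, at 21.6, lay below the median of all genes. Neighbours from Ascl2 to Slc22a18 in this order overlapped over their libraries: Ascl2 ran from 31.3 to 74.9 and Phlda2 from 30.3 to 60.3.

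Whether these levels differed with loss of Ezh2 was tested with edgeR's quasi-likelihood test on the counts summed per gene, with Benjamini-Hochberg adjustment over all autosomal genes that had an interval in each library compared. No imprinted gene passed an adjusted p of 0.05 between KO and WT. At E12.5 the count was 0 of 12 imprinted genes, against 4.04% of 3140 genes, and 0 passed with DESeq2. An unadjusted p below 0.05 was reached by 4 of the 12 and by 905 of the 3140 genes. At E15.5 the count was 0 of 13, against 0.482% of 2695 genes, and 0 passed with DESeq2. There 1 of the 13 and 303 of the 2695 genes had an unadjusted p below 0.05. Over both stages the count was 0 of 12, against 0.963% of 2492 genes, and 0 passed with DESeq2. Here 0 of the 12 and 526 of the 2492 genes had an unadjusted p below 0.05. On simulated counts the E12.5 test found 0 of 200 genes changed 2-fold. The E15.5 test found 13% of them and the test over both stages 58.5%. Whether changes of that size at single genes can be detected in the real counts was not tested.

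**Figure D4:**
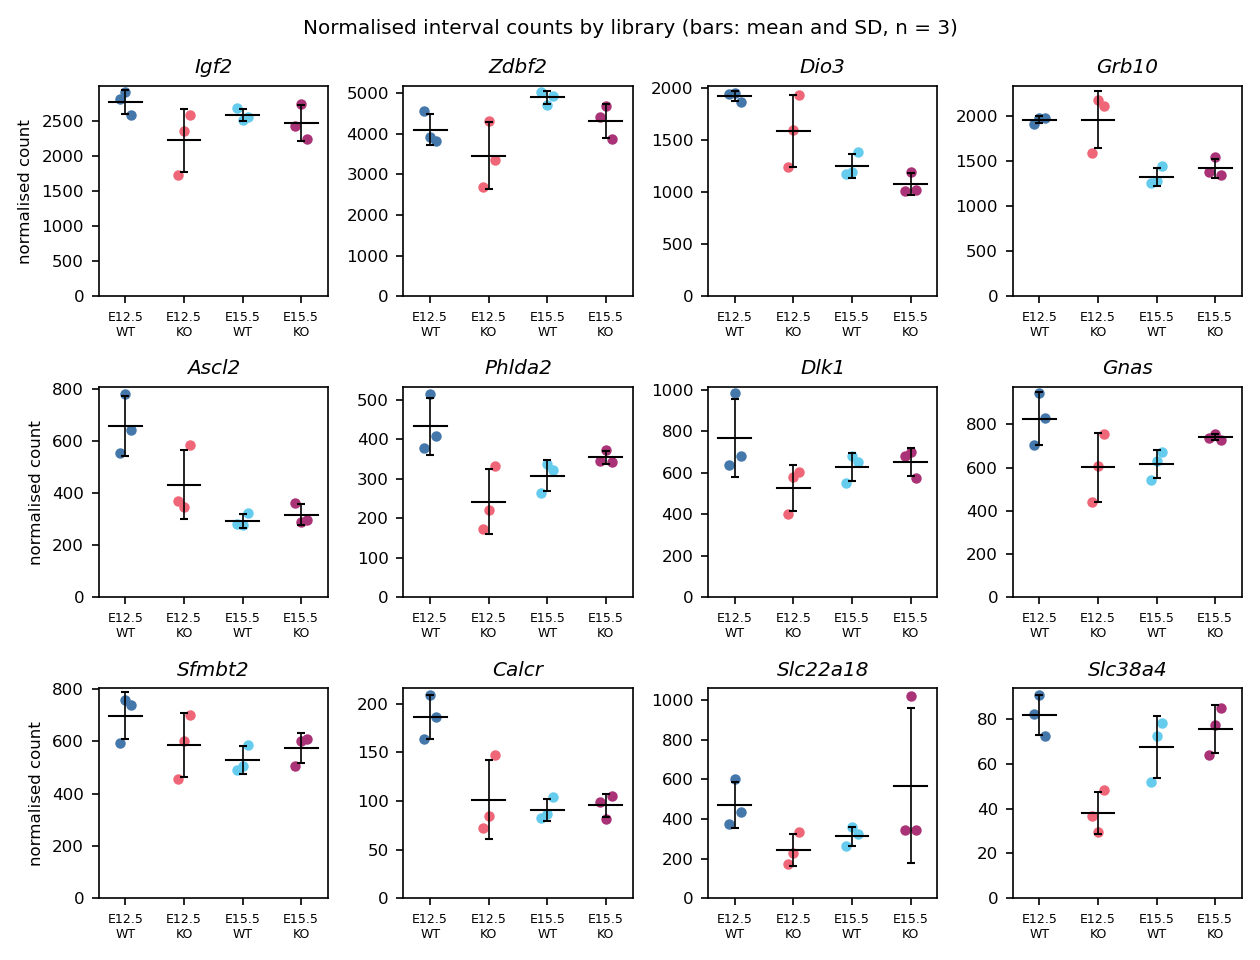
Normalised counts (y axis, from 0) of the 12 imprinted genes marked in every library, by stage and genotype, with 1 point per library and bars for the mean and SD of 3 libraries. At Igf2, Zdbf2, Dio3 and Grb10 the KO libraries overlap WT at E12.5 and Slc38a4, Calcr and Phlda2 lie lower in KO there without overlap.

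At E12.5 the median log2 change of KO against WT was -0.50 over the 12 imprinted genes and -0.57 over all genes tested. Under TMM factors, which centre the genes of a comparison, the median over all genes was -0.05 and over the imprinted genes 0.03. With counts prorated by the bases inside the window the medians were -0.25 over the imprinted genes and -0.50 over all genes, and without E12.5 KO replicate 1 they were -0.33 and -0.46. The E12.5 changes below are therefore to be read beside the median of all genes, and some are given also relative to it.

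Slc38a4 had the largest difference. Its normalised counts were 82.0, 90.4 and 72.5 for E12.5 WT and 36.7, 29.6 and 48.1 for E12.5 KO. The groups did not overlap, and the log2 change was -1.10 (SE 0.38, edgeR adjusted p = 0.110), or -0.53 relative to all genes. At E15.5 the counts were 51.9, 72.3 and 78.0 in WT and 64.0, 77.1 and 85.0 in KO, which overlap, with a log2 difference of 0.14 (SE 0.24, edgeR adjusted p = 0.869).

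Calcr had 164, 209 and 187 normalised counts in E12.5 WT and 72.3, 84.9 and 147 in E12.5 KO. KO lay below WT in every library, with a log2 difference of -0.88 (SE 0.39, edgeR adjusted p = 0.157), or -0.31 relative to all genes. Phlda2 had 377, 515 and 408 normalised counts in E12.5 WT and 173, 220 and 332 in E12.5 KO, again without overlap, with a log2 difference of -0.84 (SE 0.35, edgeR adjusted p = 0.147). With prorated counts Phlda2's difference was -0.17 (edgeR adjusted p = 0.760). Slc22a18, which shares Phlda2's interval, had a log2 difference of -0.95 (SE 0.35, edgeR adjusted p = 0.124). Without E12.5 KO replicate 3, the library with the highest KO values at all 4 genes, Slc38a4, Calcr, Phlda2, Slc22a18 and Ascl2 each passed the test as lower in KO, with log2 changes from -1.30 to -0.89. In that fit 900 of 3144 genes also passed as lower and the median over all genes was -0.82.

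At the most strongly marked genes the E12.5 groups overlapped. Igf2 had 2812, 2903 and 2582 normalised counts in WT and 1722, 2347 and 2585 in KO, a log2 difference of -0.32 (SE 0.27, edgeR adjusted p = 0.372). Zdbf2 had 4553, 3929 and 3828 in WT and 2689, 4322 and 3365 in KO, a log2 difference of -0.25 (SE 0.26, edgeR adjusted p = 0.466). Dio3 had 1941, 1955 and 1869 in WT and 1237, 1595 and 1932 in KO, a log2 difference of -0.27 (SE 0.28, edgeR adjusted p = 0.446). In each of these genes E12.5 KO replicate 1 held the lowest value. The direction turns with the scaling: under TMM factors the log2 changes were 0.20 at Igf2, 0.28 at Zdbf2 and 0.23 at Dio3, and the same turn was seen at Sfmbt2 (0.27), Gnas (0.06) and Dlk1 (0.01).

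Grb10 was the imprinted gene whose scaled counts differed least between genotypes at E12.5. Its normalised counts were 1908, 1976 and 1973 in WT and 1590, 2172 and 2106 in KO. The means were 1952 ± 38.7 and 1956 ± 319 (SD, n = 3 libraries each), and the log2 change was 0.00 (SE 0.27, edgeR adjusted p = 0.995). Relative to all genes this is 0.58 higher, and TMM factors gave 0.53 (edgeR adjusted p = 0.197).

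The remaining E12.5 genes lay between these. Ascl2 had 554, 783 and 645 normalised counts in WT and 370, 345 and 586 in KO, overlapping by 1 KO library, with a log2 difference of -0.61 (SE 0.33, edgeR adjusted p = 0.201). Gnas ranged from 707 to 948 in WT and from 440 to 756 in KO, Dlk1 from 640 to 985 in WT and from 401 to 606 in KO, and Sfmbt2 from 594 to 758 in WT and from 454 to 699 in KO. Of these, Dlk1's groups did not overlap, and its log2 change was -0.54 (SE 0.32, edgeR adjusted p = 0.231). The changes of Ascl2 and Dlk1 lay close to the median of -0.57 over all genes. Under TMM factors they were -0.08 at Ascl2 and 0.01 at Dlk1.

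At E15.5 the median log2 difference between genotypes was 0.10 over 13 imprinted genes and -0.01 over all genes. The largest was at Slc22a18, with 263, 358 and 322 normalised counts in WT and 345, 1019 and 344 in KO, a log2 difference of 0.85 (SE 0.43, edgeR adjusted p = 0.494). It rests on E15.5 KO replicate 2, where an interval over the neighbouring Cdkn1c reached the window, and was 0.13 without that library and 0.34 with prorated counts. Gnas had 543, 633 and 671 normalised counts in WT and 739, 757 and 727 in KO. KO was above WT in all libraries, and the log2 change was 0.27 (SE 0.11, unadjusted p = 0.0492 and adjusted p = 0.443 in edgeR). Zdbf2 had 5026, 4715 and 4937 in WT and 4409, 4678 and 3860 in KO, so KO was lower without overlap, with a log2 difference of -0.18 (SE 0.10, edgeR adjusted p = 0.555). Igf2 had 2677, 2513 and 2552 in WT and 2424, 2738 and 2234 in KO, a log2 difference of -0.07 (SE 0.11, edgeR adjusted p = 0.869) with overlapping groups. Usp29, a ubiquitin protease gene beside Peg3 that was tested only at E15.5, had 20.8, 26.1 and 24.3 in WT and 30.6, 21.7 and 11.3 in KO, a log2 difference of -0.24 (SE 0.41, edgeR adjusted p = 0.871). These values do not measure the same region. The count came from chr7:6902601-6902800 in WT replicate 1, and from chr7:6878601-6878800 and chr7:6924401-6925200 in KO replicate 3. In the other E15.5 libraries it came from the interval shared with Peg3.

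**Figure D5:**
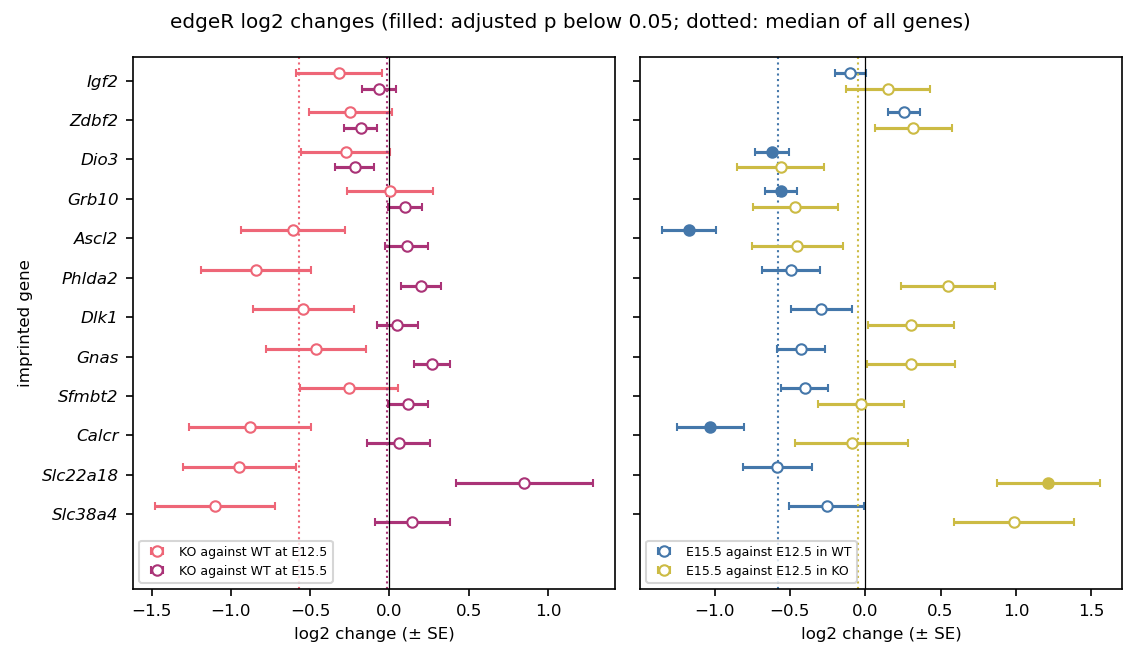
Log2 changes (x axis, point and bar for the estimate and its SE) of 12 imprinted genes in edgeR, for KO against WT on the left and E15.5 against E12.5 on the right, with filled points for an adjusted p below 0.05 and dotted lines for the median of all genes. No point on the left is filled, and on the right Ascl2, Calcr, Dio3 and Grb10 in WT and Slc22a18 in KO are.

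The difference between the stages in the KO effect was tested as an interaction. No imprinted gene passed in edgeR, 0 of 12 against 0.562% of 2492 genes, and 0 passed with DESeq2. An unadjusted p below 0.05 was reached by 6 of the 12 and by 686 of the 2492 genes. The largest differences were 1.80 at Slc22a18 (SE 0.56, edgeR adjusted p = 0.116), 1.24 at Slc38a4 (SE 0.39, edgeR adjusted p = 0.116) and 1.04 at Phlda2 (SE 0.35, edgeR adjusted p = 0.12), beside a median of 0.61 over all genes. The value at Slc22a18 was 1.07 without E15.5 KO replicate 2 and 1.39 with prorated counts, and that at Phlda2 turned to -0.18 with prorated counts. Without E12.5 KO replicate 3, 6 of the 12 passed as higher, and so did 38.4% of 2492 genes.

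Covered bases gave a second measure, from the same intervals as the counts and not scaled for depth. At E12.5, KO libraries lay all below WT at 3 of 21 imprinted genes with an interval, against 8.99% of 7194 genes. These were Calcr, Phlda2 and Slc22a18, and the last 2 share an interval and are not separate observations. With gene bodies only it was 1 of 19 imprinted genes, against 7.91% of 6785 genes. KO lay all above WT at 0 of the 21, against 0.0278% of the 7194 genes. Depth ran from 0.117 to 0.698 in E12.5 WT and from 0.212 to 0.272 in E12.5 KO, and its part was not tested. Calcr was covered over 4.8, 5.6 and 5.81 kb in E12.5 WT and 4.6, 3.6 and 3.8 kb in E12.5 KO. Phlda2 was covered over 6.6 kb, its whole window, in the 3 WT libraries and over 5.4, 6.36 and 6.36 kb in KO. Without E12.5 WT replicate 1, the list with the fewest intervals, KO lay below WT at 15 of 20 imprinted genes and at 48.8% of 7180 genes.

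At E15.5, 0 of 20 imprinted genes had KO all below WT, against 0.295% of 6446 genes. KO lay all above WT at 1 of 20, against 6.13% of genes, a share that 1 of 20 does not exceed. That gene was Plagl1, a paternally expressed zinc finger transcription factor that regulates other imprinted genes. It was covered over 0, 0 and 2.2 kb in E15.5 WT and over 10.0, 11.2 and 6.4 kb in E15.5 KO. Its start site on chromosome 10 was covered in 3 of 3 E15.5 KO libraries, in 0 of 3 libraries each of E15.5 WT and E12.5 KO, and in E12.5 WT replicate 2, the deepest library. The counts were low, with 71.3, 48.2 and 53.4 normalised counts in the E15.5 KO libraries and 4.30 to 8.34 per kb of interval, below the 27.3 of all genes marked throughout. Plagl1 had no interval in 2 E15.5 WT libraries and so no count test. The depth, lower in E15.5 WT (0.0751 to 0.15) than in E15.5 KO (0.179 to 0.346), moved in the same direction, and its part was not tested.

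Between the stages in WT, 4 of 12 imprinted genes were lower at E15.5 in edgeR, Ascl2, Calcr, Dio3 and Grb10, against 35.8% of 2624 genes that were lower, a share close to that of the imprinted genes. Ascl2 fell from 554, 783 and 645 normalised counts at E12.5 to 280, 277 and 324 at E15.5, a log2 difference of -1.17 (SE 0.18, edgeR adjusted p = 0.00886). Calcr fell from 186 ± 22.4 to 91.1 ± 11.3 (SD, n = 3 libraries each), a log2 difference of -1.03 (SE 0.22, edgeR adjusted p = 0.0171). In both genes every E15.5 WT library was below every E12.5 WT library.

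The calls other than that of Ascl2 depend on the scaling. Dio3 fell from 1921 ± 46.3 to 1252 ± 113 normalised counts (SD, n = 3 libraries each), a log2 difference of -0.62 (SE 0.11, edgeR adjusted p = 0.0126), and Grb10 fell from 1952 ± 38.7 to 1324 ± 98.5, a log2 difference of -0.56 (SE 0.11, edgeR adjusted p = 0.0136). The median over all genes was -0.58, so that relative to all genes the changes were -0.59 at Ascl2, -0.45 at Calcr, -0.04 at Dio3 and 0.02 at Grb10. With TMM factors Ascl2 (-0.69, edgeR adjusted p = 0.00584) and Calcr (-0.56, edgeR adjusted p = 0.0227) passed, and Dio3 (-0.16, edgeR adjusted p = 0.372) and Grb10 (-0.10, edgeR adjusted p = 0.553) did not. With DESeq2 Ascl2 passed (-0.59, adjusted p = 0.000344) and Calcr did not (-0.45, adjusted p = 0.0922).

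Zdbf2 went the other way. It had 4553, 3929 and 3828 normalised counts in E12.5 WT and 5026, 4715 and 4937 in E15.5 WT, without overlap, a log2 difference of 0.25 (SE 0.11, edgeR adjusted p = 0.0926), or 0.83 relative to all genes. It passed as higher under TMM scaling in edgeR (0.70, adjusted p = 0.0370) and also in DESeq2 (0.80, adjusted p = 0.00566). Without E15.5 WT replicate 2 none of the 4 genes above passed under depth scaling, without E15.5 WT replicate 1 only Ascl2 did, without E12.5 WT replicate 3 Ascl2 and Dio3 did, and without E12.5 WT replicate 1, 8 of 14 imprinted genes passed as lower and 3 as higher, beside 49.0% and 3.41% of 2759 genes. The depth of the WT libraries also differed between the stages, and so did the dissection in both genotypes. Their part in the stage comparisons, here and below, was not tested.

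Between the stages in KO, 1 of 12 imprinted genes was higher at E15.5 in edgeR, Slc22a18, against 4.13% of 3003 genes. Its normalised counts were 173, 229 and 332 at E12.5 and 345, 1019 and 344 at E15.5, a log2 difference of 1.22 (SE 0.34, edgeR adjusted p = 0.0158). The high value was that of E15.5 KO replicate 2, in which a further interval of 16.0 kb (chr7:143455601-143471600, 536 counts), which lies over the neighbouring gene Cdkn1c, reached the edge of the Slc22a18 window. Without that library the log2 change was 0.49 (edgeR adjusted p = 0.711), and with counts prorated by the bases inside the window it was 0.43 (edgeR adjusted p = 0.551). The shared Phlda2 interval had 173, 220 and 332 normalised counts at E12.5 and 345, 373 and 344 at E15.5, without overlap, a log2 difference of 0.55 (SE 0.31, edgeR adjusted p = 0.337), or 0.02 with prorated counts. Slc38a4 likewise did not overlap between the stages in KO (log2 change 0.99, SE 0.40, edgeR adjusted p = 0.124), and both it and Phlda2 passed with TMM factors (adjusted p = 0.0344 and 0.0191) while Slc22a18 did not (adjusted p = 0.0587). Dio3 passed as lower at E15.5 in KO with TMM factors (-0.55, edgeR adjusted p = 0.0192) and not with depth scaling (-0.56, SE 0.29, edgeR adjusted p = 0.275).

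Genes marked in only some libraries had low counts throughout. Tssc4, marked in 7 libraries, had 7.63 to 20.1 normalised counts where an interval was called, and its neighbour Cd81, with which it shared them, had the same range. Peg3, a zinc finger gene of the proximal chromosome 7 cluster, had 7.03 to 30.6 in 6 libraries, 2 of E12.5 WT and 4 of E15.5, and none in E12.5 KO. Usp29, marked in 8, had 7.03 to 30.6. Impact, a translational regulator, was marked in 8 libraries with 10.5 to 34.6. Igf2r (9.73, E12.5 WT), Rtl1 (5.26, E15.5 KO), Ppp1r9a (19.9, E12.5 WT) and Ddc (17.1, E12.5 KO) each had an interval in 1 library, and Peg10 in 2 E15.5 KO libraries (16.9 and 9.03). The housekeeping gene Rpl13a also had an interval in 7 libraries, with 6.77 to 30.6 normalised counts, so such values are not particular to imprinted genes. An interval that was not called is not a count of 0, and the threshold of the lists moves with depth.

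Further imprinted genes of the same and other loci gave the surroundings. Of 53 listed, 51 were in the gene table, and 10 had an interval in all 12 libraries, 17 in some and 24 in none. Of all autosomal protein-coding genes, 12.1% had an interval in all 12 libraries and 61.2% in none. The 10 include Kcnq1 and the noncoding Kcnq1ot1, whose windows overlap. Kcnq1, a potassium channel gene whose intron holds the start of the noncoding Kcnq1ot1, was the 1 of 11 tested that was lower in E12.5 KO. It had 813, 2448 and 1236 normalised counts in E12.5 WT and 269, 526 and 607 in E12.5 KO, without overlap, a log2 difference of -1.68 (SE 0.41, edgeR adjusted p = 0.0323), or -1.11 relative to all genes. It did not pass with TMM factors (-1.12, edgeR adjusted p = 0.166), without E12.5 WT replicate 2 (-1.13, 0.0751) or without E12.5 KO replicate 1 (-1.41, 0.260), where the bracketed values are the log2 change and the edgeR adjusted p.

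At E15.5 Kcnq1 had 3719, 3524 and 3269 normalised counts in WT and 4153, 4832 and 3426 in KO, above every E12.5 library. Its log2 change from E12.5 to E15.5 was 1.22 (SE 0.37, edgeR adjusted p = 0.0410) in WT and 3.15 (SE 0.32, edgeR adjusted p = 2.64e-10) in KO. Cdkn1c, the neighbouring maternally expressed inhibitor of the cell cycle, had 68.7, 214 and 140 at E12.5 and 515, 464 and 452 at E15.5 in WT, and 33.1, 80.2 and 63.0 against 521, 646 and 475 in KO. Its changes were 1.73 (SE 0.38, edgeR adjusted p = 0.0175) in WT and 3.21 (SE 0.35, edgeR adjusted p = 1.56e-09) in KO. The tissue was dissected differently at the 2 stages, and the part of this in the changes of Kcnq1 and Cdkn1c was not tested. The windows of Kcnq1 and the antisense Kcnq1ot1 overlap, so intervals there belong to both. In the same cluster Ascl2 fell in WT from E12.5 to E15.5, as given above, and Phlda2 had a log2 difference of -0.49 (SE 0.19, edgeR adjusted p = 0.0784). Phlda2's value was 0.08 relative to all genes, -0.01 with TMM factors, 0.09 with DESeq2 and 0.20 with prorated counts.

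Of 22 regulators of imprints, among them Zfp57, Trim28, Dnmt1 and the subunits of Polycomb repressive complex 2, none was marked in all 12 libraries. Of all autosomal genes 12.1% were. Of the 22, 10 were marked in some libraries and 12 in none, against 61.2% of all autosomal genes in none. Zfp57, Ezh2, Eed and Suz12 were in the last class, and none of the 22 entered a count test.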

How the data were processed

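H3K27me3 CUT&Tag lists of 12 libraries, WT and KO at E12.5 and E15.5 with 3 each, were used. Per the submitters' processing notes, cutadapt, Bowtie2, SAMtools, Picard, deepTools and SICER were used with build GRCm38/mm10. Versions, roles and thresholds are not given in the sources used here. The lists were deposited by the authors per library, not pooled, with a count and a score per interval on 200 bp windows. The counts are whole numbers as the authors deposited them, not normalized. The deposited score of a single window equalled the negative natural log of a Poisson probability of its count at 1 mean per library (largest misfit 0.00407). That mean was taken as the depth, which assumes that it is proportional to the reads.

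Counts of intervals overlapping a gene body ± 2500 bp by at least 1 bp were summed per gene, and an interval that reaches beyond the window was counted whole. Positions are GRCm38, from 1. Genes were tested in 6 comparisons with edgeR 4.0.16 (R 4.3.3), quasi-likelihood, library sizes proportional to depth, over autosomal protein-coding genes with an interval in each library compared. Only the groups of a comparison entered its fit, and all 4 for the comparison over both stages and the interaction. The SE is the change over the square root of F. On simulated counts with 200 genes changed 2-fold, the test recovered 0 of 200 at E12.5 (3140 genes, 1 false call), 13% at E15.5 (2695 genes, 1 false call) and 58.5% over both stages (2492 genes, 7 false calls). P-values measure the spread between the libraries of a group. Counting error falls with depth, which was lowest (0.0751) in E15.5 WT replicate 1. Alternatives were TMM factors, DESeq2 1.42.0, a mean count of at least 50, genes with an interval in most libraries, prorated counts, gene bodies only, an overlap of 1000 bp, lists cut to 5008 intervals, a block for the replicate number, and each library left out in turn. Tables were handled in Python 3.11.15 with pandas 2.3.3 and numpy 2.4.6, and figures drawn with matplotlib 3.10.9.

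The members, the gene lists and the depth scaling were chosen with earlier results of these data known. Genes given in detail are those called in any comparison, the member of each cluster with intervals in the most libraries, and further imprinted genes or imprint regulators called between genotypes. Members whose covered bases do not overlap at 1 stage, the start site measure, the hexamer, the levels per kb, the sequences printed, the other members given per library, and Cdkn1c and Kcnq1 between stages were chosen after values were seen. Start sites and sequences are from RefSeq (GRCm38.p6), and 4 members had no entry.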

Additional observations from a re-analysis of the deposited data

How the results depend on the processing

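All 6 comparisons were refitted under the alternatives. No member passed between KO and WT at E15.5 or over both stages under any of them, and at E12.5 and in the interaction none passed except without single libraries. Leaving out 1 library gave 0 to 5 members lower in KO at E12.5 (0.323% to 28.6% of all genes), 0 to 6 higher in the interaction (0% to 38.4%), 0 to 8 lower (3.08% to 49.0%) and 0 to 3 higher (0.0742% to 3.41%) at E15.5 in WT, and 0 to 2 higher at E15.5 in KO (2.45% to 6.27%). The top of the E12.5 and interaction ranges came without E12.5 KO replicate 3, and that of both WT ranges without E12.5 WT replicate 1. Between stages in WT, TMM factors gave 2 lower and 1 higher (17.1% and 10.3% of all genes). DESeq2 gave 1 lower and 1 higher (14.6% and 14.2%), against 4 and 0 reported (35.8% and 1.71%). In KO, TMM factors gave 1 lower and 2 higher (7.69% and 8.82% of all genes). DESeq2 gave 2 lower and 3 higher (8.59% and 10.2%), against 0 and 1 reported (5.49% and 4.13%). In KO 0 were higher with intervals in most libraries, prorated counts, gene bodies only, an overlap of 1000 bp or the replicate block (1.73% to 4.34% of all genes). The causes of these shifts were not tested. Members with covered bases in KO below WT at E12.5 numbered 1 for gene bodies only (7.91% of all genes), and leaving out 1 library gave 3 to 15 (9.89% to 48.8%). At E15.5 it gave 0 to 4 below (0.511% to 4.66%) and 1 to 4 above (6.77% to 17.0%).

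Over the 6 comparisons, 88 of 1230 refitted changes of members turned direction, at 3 to 8 members a comparison, and none of the 88 passed the test. Of these, 28 concern KO against WT at a stage or other changes printed above. At E12.5 these were, with TMM factors and DESeq2 in that order, Igf2 (0.199 and 0.254), Dlk1 (0.00643 and 0.0664), Dio3 (0.234 and 0.289, and 0.255 with prorated counts), Gnas (0.0578 and 0.119), Sfmbt2 (0.274 and 0.334) and Zdbf2 (0.282 and 0.334), and Grb10 with the replicate block (-0.0106). At E15.5 they were Phlda2 (-0.345) and Dlk1 (-0.104) with prorated counts, which also turned Phlda2 in the interaction (-0.177) and between the stages in WT (0.197, and 0.0928 with DESeq2). Leaving out 1 library turned Grb10 at E12.5 (range -0.0795 to 0.131) and, at E15.5, Igf2 (-0.148 to 0.000446), Ascl2 (-0.000127 to 0.186), Dlk1 (-0.0335 to 0.133), Usp29 (-0.596 to 0.106) and Calcr (-0.0231 to 0.171).

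The correlations below do not settle whether the replicate numbers pair libraries, and the main fits did not use these numbers. Between WT and KO the same-numbered libraries correlated at 0.226, 0.019 and 0.168 at E12.5. At E15.5 the values were -0.223, -0.202 and -0.352. Over 2492 genes the deviations of same-numbered libraries correlated at -0.352 to 0.390, and with the replicate block 0 members passed between genotypes and 5 of 12 were lower at E15.5 in WT, beside 38.6% of 2624 genes. Over all genes the block gave 298 lower and 7 higher in KO at E12.5 (127 and 0 without it), 0 and 0 at E15.5 (2 and 11) and 4 and 0 over both stages (23 and 1), and TMM factors gave 38 and 9, 2 and 15, and 49 and 53. Between the stages TMM factors gave 449 lower and 271 higher in WT (939 and 45 with depth) and 231 and 265 in KO (165 and 124). Depth limits the test: a gene without an interval in a library has no count, so a lost mark is outside it.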
